A study of Homo sapiens with 20 samples.

Results

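The response of HK3-null HL60 cells to all-trans retinoic acid (ATRA) was measured as RNA in 3 libraries from cells kept for 36 h in 1 µM ATRA and in 3 libraries from cells kept for the same time in 0.01% DMSO. A gene was taken as a member when its mean scaled count was 50 or more in either HK3-null group, which held for 10804 of the 28051 named genes, and all 10804 were among the 13256 genes tested. Of these members, 10193 reached 50 in both groups, 393 in ATRA alone and 218 in DMSO alone. HL60 is an established human acute myeloid leukemia (AML) cell line. The HK3-null cells came from clonal lines in which CRISPR had disrupted HK3, the gene of hexokinase 3, and all 6 libraries share 1 knockout label, so whether they stem from more than 1 clone is unknown. The reference cells were HL60 cells expressing Cas9, with 3 libraries in ATRA and 3 in DMSO under the same doses and time. No untreated cells were analysed here, and DMSO is the vehicle in every control library.

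ATRA binds retinoic acid receptors, which pair with retinoid X receptors and sit on DNA at repeated half-sites, and it switches these receptors from repression to activation of their targets. In HL60 and related AML cells the agent leads promyelocyte-like cells towards neutrophil-like cells. This maturation is known for a gain of adhesion receptors such as CD11b (ITGAM), of the oxidase that makes superoxide and of chemoattractant receptors, and for a loss of MYC, of ribosome production and of division. Mature neutrophils die quickly, and the balance of BCL2 family proteins sets how readily they do so.

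HK3, the targeted gene, lies on chromosome 5 and is given as a count for the gene, which does not tell whether a transcript still encodes the enzyme. Its scaled counts were 344, 302 and 346 in the DMSO libraries labelled HK3-null and 1384, 1285 and 1975 in the ATRA libraries. In Cas9 control cells they were 90, 65 and 105 in DMSO and 1305, 1298 and 1850 in ATRA, so in DMSO each library labelled HK3-null held more HK3 RNA than each control library, and the count does not show the knockout that the label names. HK3 RNA was therefore present in every library labelled HK3-null, and it rose by 2.20 on the log2 scale (standard error 0.20, adjusted p = 1.61e-06, limma). The paper reports that its knockout lines were checked in genomic DNA by sequencing and in protein by mass spectrometry, neither of which is read by this RNA count. Azurophil granule genes, which mark promyelocytes, summed to between 830220 and 924934 scaled counts in the DMSO libraries and to between 831308 and 970733 in the ATRA libraries. These sums include CTSD, also on the lysosome list, which went from 16451, 16068 and 14862 to 158278, 162525 and 159622. By adjusted p in limma, 11 of the 21 tested genes were higher and 6 lower, so the similar sums do not mean that the genes were unchanged. Among markers of mature neutrophils, ALPL and KRT23 were at 0 in all 6 HK3-null libraries, and FCGR3B held 18, 26 and 31 scaled counts in DMSO and 14, 22 and 26 in ATRA. Other genes of that marker list rose, with 5 of the 12 tested called higher and none lower, and CSF3R went from 4400, 3930 and 3799 to 13128, 12260 and 12928. Genes of the immature granule were thus high in both treatments, while the late markers split at 36 h in ATRA.

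The deposited values are log2 of counts scaled between libraries, and the scaled counts summed to between 29615955 and 31548189 in the HK3-null libraries. Depth before scaling is unknown, a count of 0 allows up to 3 scaled counts in a library, and this limit covers counting error only. On the first principal component of the HK3-null libraries, which held 82% of the variance, DMSO libraries lay between -57.25 and -55.47 and ATRA libraries between 51.13 and 62.83. The second component held 8.1% and set replicate 3 of each treatment apart, at -24.79 in DMSO and -24.62 in ATRA. Of the reference libraries, Cas9 control DMSO replicate 1 stood apart: it had 16750 genes above 0, where the remaining 11 libraries had 15031 to 15801. In bulk RNA, fewer cells of a type and less RNA per cell cannot be told apart. The paper calls the replicates biological, but it does not state whether they came from separate cultures or from separate clones. The p-values therefore measure the spread between these libraries.

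Sequences are shown first for the genes that rose from 0 and hold a retinoid half-site repeat before a start, and then for genes of the fall in ribosome production that hold the E-box letters CACGTG. A direct repeat with 5 bases between its half-sites (DR5) was searched as GGTCA or GTTCA followed, after 6 bases, by GGTCA or GTTCA, on both strands, in the RefSeq promoters of GRCh38 that run from 250 bases before to 50 bases after a start. It was found in 46 of 27305 promoters (0.168%) and in 1 of the 597 promoters matched to members called higher, that of BATF2. RARB, the gene of retinoic acid receptor beta, also holds it and was called higher but stayed under the member level; it was chosen after its values were seen. In capitals is the repeat with the base before it, each on the strand of the gene. For both genes the start used lies inside the full span of the gene, so it is not the outermost start. That span is chr3:24829321-25597932 for RARB and chr11:64987945-64996971 for BATF2. The RARB stretch is on the plus strand at chr3:25428170-25428262, from -93 to -1. The BATF2 stretch is on the minus strand at chr11:64990278-64990346, from -69 to -1.
RARB: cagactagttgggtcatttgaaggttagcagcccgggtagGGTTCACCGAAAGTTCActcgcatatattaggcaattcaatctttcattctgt
BATF2: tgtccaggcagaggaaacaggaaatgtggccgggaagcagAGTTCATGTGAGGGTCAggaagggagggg

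BATF2, a basic leucine zipper factor of interferon responses, was at 0 in all 3 DMSO libraries and at 171, 233 and 325 scaled counts in ATRA, which is at least 81-fold higher against the limit of 3 scaled counts per library. RARB was at 0 in DMSO as well and at 30, 35 and 44 in ATRA, at least 12.1-fold higher by the same limit. No library of either treatment overlapped the other for these genes. The promoter table holds no entry for TGM2. Closer half-sites were as rare: a repeat with 2 bases between was in 0 of the 597 promoters of members called higher and in 0.15% of all promoters, and a repeat with 1 base between was in 0.335% and 0.275%.

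The E-box letters CACGTG, which read the same on both strands and are bound by MYC with MAX among other factors, were in 87 of the 451 promoters matched to members called lower (19.3%). They were in 8.54% of the 597 promoters of members called higher, in 10.5% of the 9707 promoters of tested genes and in 7.43% of all 27305 promoters. Of the 15 promoters matched to called-lower genes of the list of MYC targets and ribosome biogenesis, 5 hold them, those of SRM, RRP9, PPAT, NME1 and PES1. SRM, spermidine synthase, is shown from chr1:11060192-11060237 and PPAT, which starts purine synthesis, from chr4:56435772-56435817, both on the minus strand with the E-box in capitals. These matches are letters in a window, and binding was not measured.
SRM: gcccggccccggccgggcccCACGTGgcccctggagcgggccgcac
PPAT: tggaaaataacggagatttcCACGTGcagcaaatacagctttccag

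ATRA raised 842 members and lowered 623, by the calls used throughout: an adjusted p under 0.05 in limma and a fold of at least 2 on log2(scaled count + 1). Over all 13256 tested genes 8.83% were called higher and 6.51% lower, and of the members 13.6% were called in either direction. A member that reached 50 in only 1 group had to differ, and of those that reached it in both groups 576 were called higher and 500 lower, which is 10.6%. The median log2 change over all members was 0.00, and 50.2% of members lay above 0. Of the members that reached 50 in both groups, 145 were at least 4-fold higher and 57 at least 4-fold lower, and 20 and 1 reached 16-fold. Members that reached it in ATRA alone added 162 rises of at least 4-fold, and those in DMSO alone added 64 falls. Members called higher had a median of 174 scaled counts in DMSO and 677 in ATRA, whereas those called lower went from a median of 833 to 290. These medians are over all called members, including those that the member rule placed under 50 in 1 group. Part of the low start of the rises, and of the low end of the falls, therefore follows from the rule. Medians for called members that reached 50 in both groups alone were not taken.

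**Figure D1:**
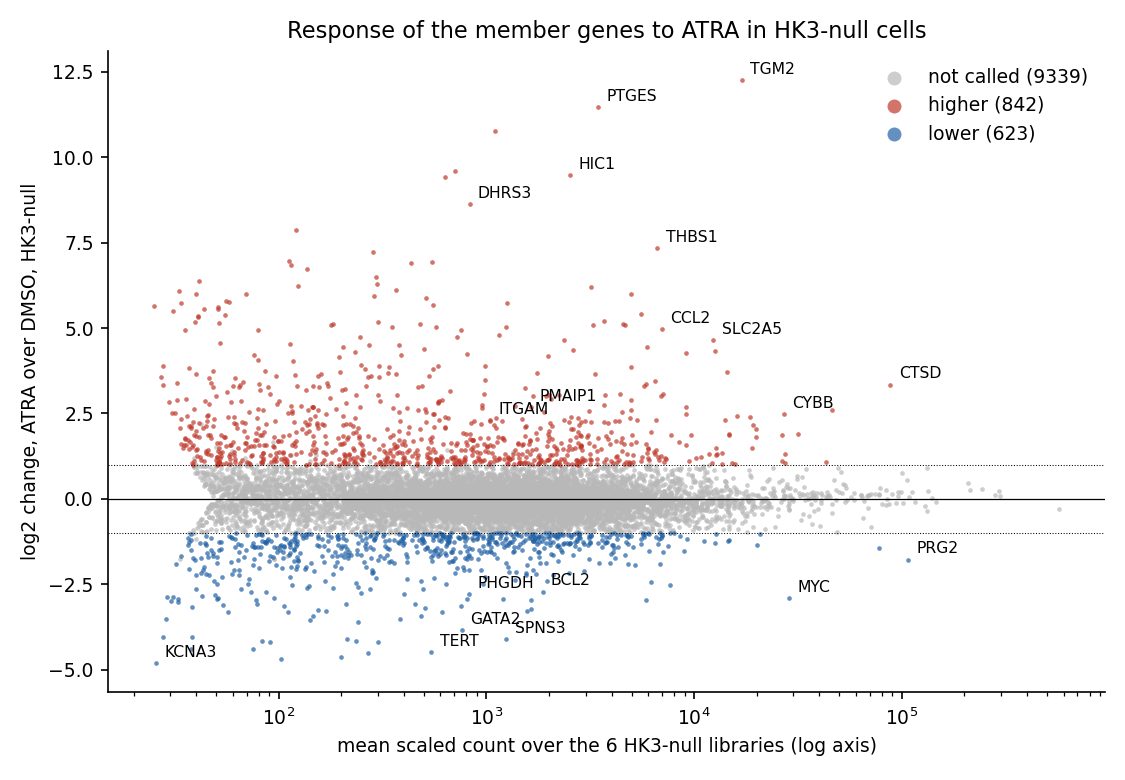
Log2 change from DMSO to ATRA for each of the 10804 members (y axis) against the mean scaled count over the 6 HK3-null libraries (x axis, log scale). Red points are the 842 members called higher, blue points the 623 called lower, and dotted lines mark a fold of 2. The highest points rise past 10 on the log2 scale, while no fall goes below -5.

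The largest rises came from genes that were close to silent in DMSO. Of the 81 members called at least 16-fold higher, 61 reached 50 in ATRA alone, so the member rule placed them under 50 in DMSO. TGM2, the transglutaminase that crosslinks proteins and a known retinoid target, held 4, 4 and 12 scaled counts in DMSO and 32339, 30084 and 39244 in ATRA, a log2 change of 12.26 (standard error 0.53, adjusted p = 2.07e-09). PTGES, which makes prostaglandin E2, held 0, 1 and 6 in DMSO and 7006, 7794 and 5906 in ATRA, a log2 change of 11.47. HIC1, a transcriptional repressor and retinoid target, went from 12, 8 and 2 to 5182, 5347 and 4539 scaled counts. In each of these genes every ATRA library lay far above every DMSO library. DHRS3, which reduces retinal and so limits retinoid supply, rose from 2, 2 and 7 to 1653, 1842 and 1471. MLXIPL, a glucose-sensing transcription factor, rose from 2, 1 and 0 to 1234, 1243 and 1290. SOCS3, a feedback inhibitor of cytokine signalling, rose from 6, 11 and 7 to 996, 1225 and 1021. Other large rises were CCL24, an eosinophil chemoattractant (log2 change 9.59), THBS1, the matrix protein thrombospondin 1 (7.34), and the uncharacterised genes LOC100506585 (10.77) and LOC102724297 (6.95). For genes within 3 counts of 0 in DMSO these log2 changes depend on the added count of 1.

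The largest falls started from moderate levels and ended low, in some genes near 0. Of the 15 members called at least 16-fold lower, 14 reached 50 in DMSO alone, so the member rule placed them under 50 in ATRA. TERT, the catalytic subunit of telomerase, fell from 1148, 967 and 995 scaled counts in DMSO to 65, 57 and 25 in ATRA, and its log2 change was -4.48 (standard error 0.27, adjusted p = 4.19e-08). SPNS3, a putative sphingolipid transporter, fell from 2438, 2544 and 2091 to 157, 152 and 106. DEPTOR, an inhibitor of mTOR, fell from 515, 540 and 501 to 24, 22 and 20. The ATRA libraries of all 3 genes were far under those in DMSO, and those of TERT differed most among themselves. The potassium channel gene KCNA3 had a log2 change of -4.81, from 53, 43 and 55 to 2, 0 and 1, the largest fall among these members. SEMA3G, a semaphorin (-4.68), DDN (-4.63), CHST4, a sulfotransferase (-4.38), C1orf186 (-4.18), IGLL1, a surrogate light chain (-4.17), and DTNA, a dystrobrevin (-4.16), were also among the largest falls. With the deposited log2 values in place of log2(scaled count + 1), the falls of KCNA3 (-8.63), C1orf186 (-4.22) and DTNA (-4.34) were as large or larger but no longer passed the adjusted p.

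**Figure D2:**
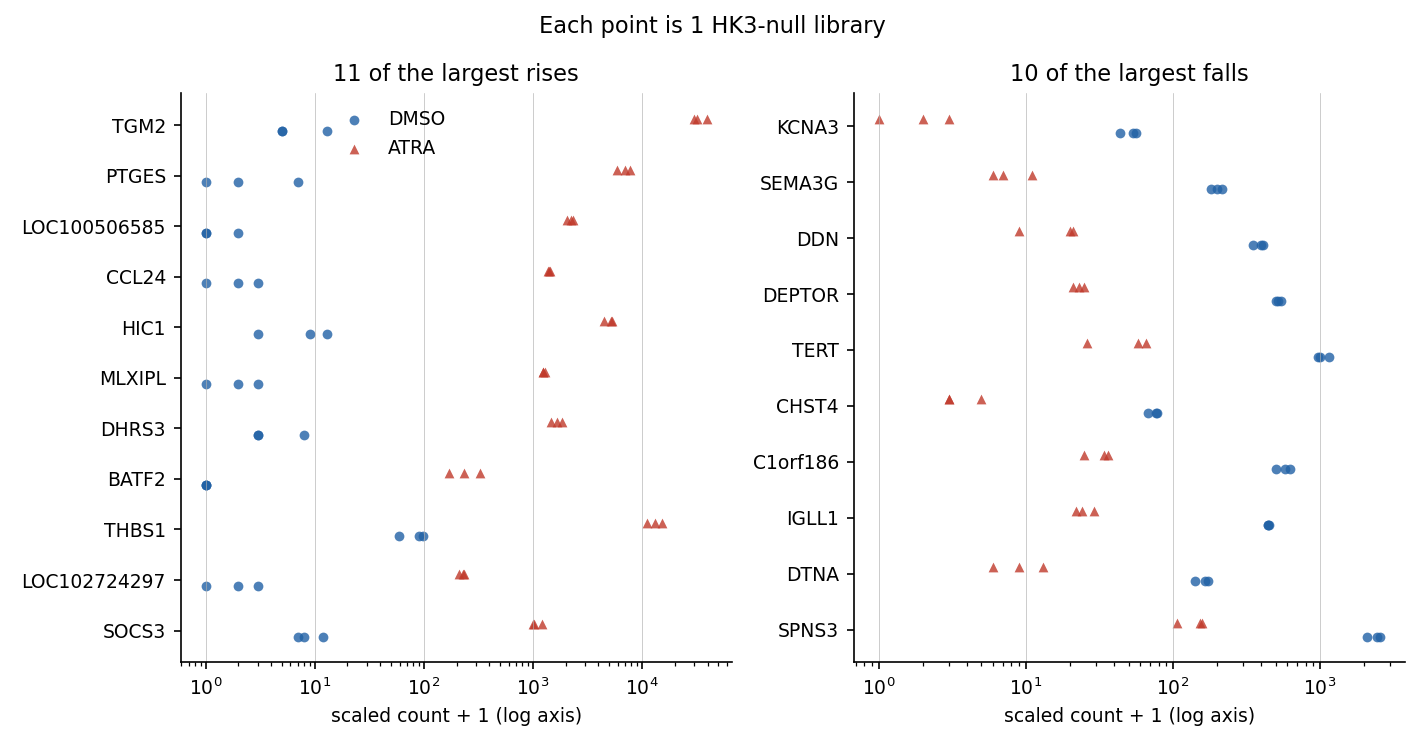
Scaled count plus 1 (x axis, log scale) in each HK3-null library for 11 of the members with the largest rises (left) and 10 of those with the largest falls (right) among called members whose treatments do not overlap. Circles are DMSO libraries and triangles ATRA libraries, and no gene shows an overlap between them.

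Of the pathway lists, retinoid handling had the highest median. Of 23 tested genes of retinoid receptors and retinoid targets, 12 were called higher and 1 lower, with a median log2 change of 1.27. Of the 13 that reached the member level in both HK3-null groups, 3 were called higher and 1 lower. The other called rises were thus under that level in DMSO, and no median was taken for the 13 alone. CYP26A1, the enzyme that clears retinoic acid, was at 0, 1 and 0 scaled counts in DMSO and at 94, 59 and 32 in ATRA. TGM2, HIC1 and DHRS3, given above, belong to this list. Several of its genes are known as targets of the agent, so the list is a check of the treatment more than an independent result.

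Myeloid transcription factors moved both ways, with 11 of 35 tested called higher and 4 lower (median 0.42). CEBPB, which drives emergency granulocyte production, held 573, 560 and 780 scaled counts in DMSO and 8336, 10562 and 8807 in ATRA. ID1, an inhibitor of basic helix-loop-helix factors, rose by 4.07 on the log2 scale. GATA2, a factor of stem cells, mast cells and basophils, fell from 1222, 1476 and 1559 to 97, 106 and 91. IRF8, which favours monocytes and dendritic cells over granulocytes, fell from 270, 261 and 300 to 28, 17 and 48. MYB, a factor of proliferating progenitors, had a log2 change of -1.39 and TFRC, the transferrin receptor, one of -1.35, while the G-CSF receptor gene CSF3R rose by 1.66. Of 11 tested primitive and progenitor markers, 3 were called higher and 4 lower.

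Adhesion and chemoattractant receptors rose more often than they fell. Integrins, selectins and partners had 9 of 21 tested genes called higher and 1 lower (median 0.65). ITGAM, the alpha chain of the complement receptor CR3 and the usual marker of granulocytic maturation, held 372, 355 and 322 scaled counts in DMSO and 1791, 1510 and 1915 in ATRA, a 4.97-fold rise (log2 change 2.31, standard error 0.12, adjusted p = 1.17e-08). ICAM1, a ligand of leukocyte integrins, rose from 67, 100 and 54 to 2538, 2876 and 1826. ITGB7, the beta chain of gut-homing integrins, rose by 2.91 on the log2 scale and ITGA6, a laminin receptor chain, by 2.26. Every ATRA library exceeded every DMSO library for these 4 genes. Chemoattractant receptors had 9 of 22 called higher and 1 lower, among them CCR3 (6.48) and CCR1, which went from 453, 485 and 520 to 6906, 6373 and 5212. Of the 15 that reached the member level in both HK3-null groups, 5 were called higher and none lower. The list of chemokines, cytokines and NF-kB genes had 9 of 30 called higher and 2 lower, with CCL2, which attracts monocytes, at 479, 453 and 338 in DMSO and 15625, 15972 and 9056 in ATRA. Among its 20 genes at the member level in both HK3-null groups, 4 were called higher and none lower.

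Genes of killing and digestion rose in part. Of 10 tested NADPH oxidase genes, 3 were called higher and none lower, and 9 had a higher level at an adjusted p under 0.05 (median 0.90). CYBB, the oxidase's membrane core, held 8433, 8696 and 7412 scaled counts in DMSO and 47716, 45030 and 44349 in ATRA. NCF1, a cytosolic subunit whose near-identical pseudogene copies make its count uncertain, rose by 4.44 on the log2 scale. Azurophil granule genes split, with 6 of 21 called higher and 2 lower: CTSD, the protease cathepsin D, went from 16451, 16068 and 14862 to 158278, 162525 and 159622 (log2 change 3.34) and BPI, which binds bacterial lipopolysaccharide, rose by 1.89, while CTSG and PRSS57, serine proteases of the early granule, changed by -2.24 and -1.82. Specific and gelatinase granule genes had 9 of 24 called higher and 3 lower, among them CHI3L1 (2.15) and CEACAM1, whose 65, 75 and 90 scaled counts in DMSO became 1794, 1894 and 2978 and which did not pass the adjusted p with the deposited log2 values, at 4.83. S100A8 and S100A9, the calprotectin chains, rose by 1.04 and 1.32, and they were the called genes of 9 tested S100 genes.

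Lysosome and antigen presentation genes had more calls higher than lower. Of 44 lysosome and V-ATPase genes 11 were called higher and 1 lower, and 31 were higher at an adjusted p under 0.05 (median 0.65). TFEB, the factor that controls lysosome genes, held 27, 40 and 58 scaled counts in DMSO and 353, 704 and 850 in ATRA, and NPC2, which moves cholesterol out of lysosomes, rose by 2.12. The autophagy list moved less, with 4 of 38 called higher and 1 lower and a median of -0.02, and GABARAPL1, an autophagosome protein, rose by 1.60. FGR, a Src family kinase of myeloid cells, went from 1241, 1080 and 1214 to 23270, 23046 and 25482, and PIK3CG, a lipid kinase downstream of chemoattractant receptors, rose by 3.07. HLA and antigen presentation genes had 7 of 20 called higher and none lower, with PSMB9, an immunoproteasome subunit, at 3.04 and HLA-E at 1.32. HLA genes are near copies of each other, and how reads were shared among them is not given in the sources used here.

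Interferon-stimulated genes did not move as 1 block, with 20 of 42 tested called higher and 7 lower (median 1.01). Among the 22 that reached the member level in both HK3-null groups, 11 were called higher and 2 lower. MX2, an antiviral GTPase, held 30, 28 and 23 scaled counts in DMSO and 333, 312 and 452 in ATRA. OAS3, a sensor of double-stranded RNA, rose by 3.28 on the log2 scale and IFI6 by 3.08. IRF1, a transcription factor, rose from 372, 406 and 337 to 2922, 3348 and 2667. Of the 7 called lower, the members were IFITM2, an antiviral membrane protein, which fell from 995, 1079 and 980 to 398, 372 and 333, and XAF1, which fell from 165, 153 and 144 to 64, 49 and 64. Both were chosen after their values were seen, and IFITM2 has near copies whose reads may be shared. The list's summed scaled counts were 11612 to 12480 in DMSO and 22049 to 22790 in ATRA.

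**Figure D3:**
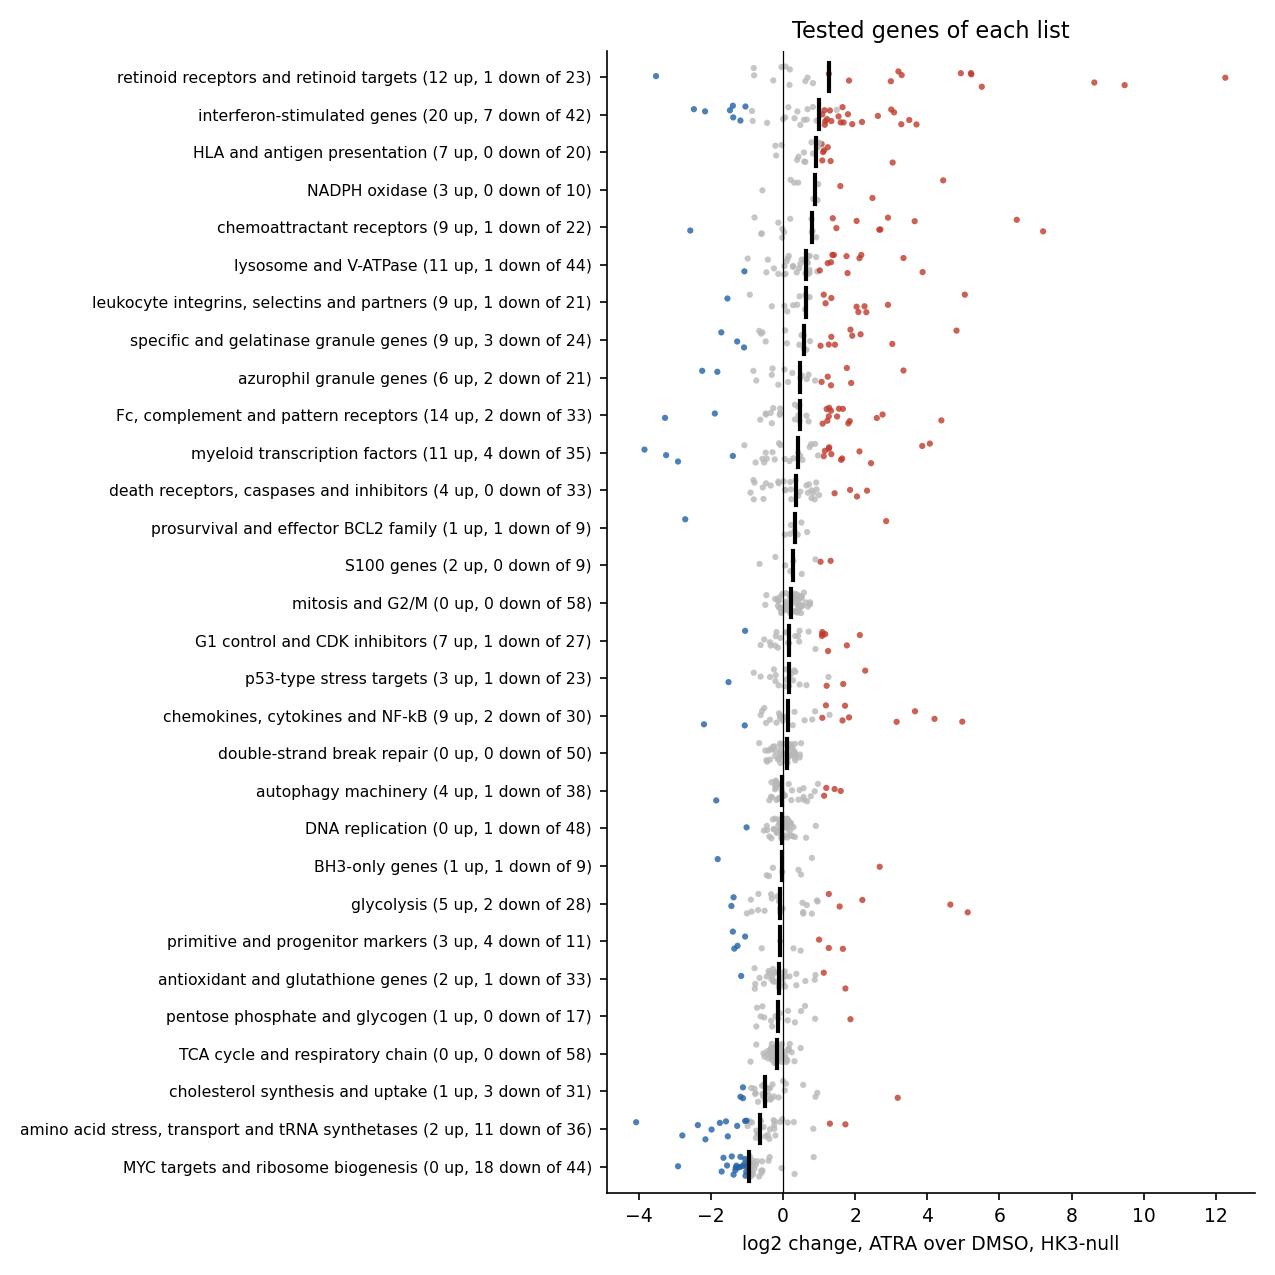
Log2 change from DMSO to ATRA in HK3-null cells (x axis) for the tested genes of 30 pathway lists (rows, ordered by median). Red points are called higher, blue points lower and grey points neither, black bars are medians, and each label gives the called and tested counts. Retinoid genes have the highest median at 1.27 and MYC targets with ribosome biogenesis the lowest at -0.94.

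MYC fell, and most genes of ribosome production were lower with it. MYC, on chromosome 8, held 54095, 45237 and 51576 scaled counts in DMSO and 7575, 5403 and 7202 in ATRA, a log2 change of -2.91 (standard error 0.14, adjusted p = 4.03e-09). Of 44 genes of the MYC and ribosome biogenesis list 18 were called lower and none higher, and 41 were lower at an adjusted p under 0.05 with a median of -0.94. RRP9, a protein of small nucleolar particles, fell from 2894, 2737 and 2573 to 955, 926 and 675. SRM fell from 7359, 7073 and 6607 to 2545, 2421 and 1792. PPAT, named for its promoter, fell from 2422, 2522 and 2514 to 1100, 1011 and 904. These genes fell by less than MYC itself, and NPM3, a nucleolar chaperone, changed by -1.55. Promoters of SRM and PPAT with the E-box are printed above.

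Genes of division did not follow. Of 58 mitosis and G2/M genes none was called in limma, the median was 0.22, and 32 were higher and 2 lower at an adjusted p under 0.05 (32 and 3 unadjusted). Of 48 DNA replication genes 1 was called lower, POLD2, a DNA polymerase subunit whose log2 change of -1.01 sits at the fold limit, and 6 were higher and 9 lower by adjusted p alone. POLD2 was no longer called without HK3-null DMSO replicate 1 (-0.99), HK3-null DMSO replicate 2 (just under the fold of 2) or HK3-null ATRA replicate 3 (-0.90). G1 control genes had 7 of 27 called higher and 1 lower. CDKN2D and CDKN2C, inhibitors of the G1 kinases, rose by 1.77 and 1.17, CCND3, a G1 cyclin, by 1.25 and E2F2 by 1.09. None of 50 double-strand break repair genes was called in limma, with 14 higher and 9 lower by adjusted p alone (15 and 11 unadjusted).

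Amino acid supply genes had more calls lower than higher. Of 36 tested genes of amino acid stress, transport and tRNA synthetases, 11 were called lower and 2 higher, with 26 lower by adjusted p alone (median -0.65). PHGDH, the first enzyme of serine synthesis, held 1617, 1396 and 1294 scaled counts in DMSO and 233, 211 and 178 in ATRA. ASNS, asparagine synthetase, fell from 2501, 2286 and 2086 to 528, 485 and 341. PYCR1, of proline synthesis, had a log2 change of -1.98 and SLC7A2, an arginine and lysine carrier, one of -2.15, the same with the deposited log2 values but no longer past the adjusted p. The SLC7A2 counts of the HK3-null treatments did not overlap, while each Cas9 control library, which shares the fit, held 0 or 1. The 2 called higher were SLC7A11 (1.73), the cystine importer, and DDIT4 (1.30), an inhibitor of mTOR signalling.

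Sugar metabolism changed at single genes. The glycolysis list had 5 of 28 called higher and 2 lower with a median of -0.07. SLC2A5, the fructose transporter, held 1024, 899 and 932 scaled counts in DMSO and 24029, 25996 and 21389 in ATRA. FBP1, which runs gluconeogenesis against glycolysis, rose from 271, 242 and 244 to 9109, 8869 and 8424. Of the hexokinases, and beside HK3, HK2 fell from 4161, 3882 and 3445 to 1750, 1430 and 1297 (log2 change -1.37, adjusted p = 5.13e-05), and HK1 went from 46, 45 and 38 to 101, 91 and 125 (1.27, adjusted p = 0.000447). HK1 and HK2 were chosen after their values were seen. PGD, an NADPH-producing enzyme, was the called gene among 17 of the pentose phosphate and glycogen list and rose by 1.87. None of 58 genes of the TCA cycle and respiratory chain was called in limma, and 26 were lower and 3 higher by adjusted p alone (31 and 5 unadjusted). Cholesterol synthesis and uptake had 3 of 31 called lower and 1 higher, with HMGCS1 (-1.18) and LSS (-1.11) among the falls, and the rise was ABCA1, which exports cholesterol (3.18). By adjusted p alone 19 genes of that list were lower.

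BCL2 family genes parted into a few that moved strongly and many that moved little. Among 9 tested BH3-only genes, whose products trigger apoptosis by binding prosurvival proteins, PMAIP1 was called higher and BIK lower. PMAIP1 (NOXA), which counters MCL1, held 509, 411 and 395 scaled counts in DMSO and 3563, 2614 and 2356 in ATRA, a 6.49-fold rise (log2 change 2.68, standard error 0.22, adjusted p = 6.26e-07). BMF held 468, 536 and 462 in DMSO and 752, 948 and 862 in ATRA. Its libraries did not overlap, but its log2 change of 0.80 (adjusted p = 0.000216) stayed under the fold of 2. BIK fell from 154, 153 and 109 to 57, 34 and 29. BCL2L11 (BIM) held 2050, 1853 and 1621 in DMSO and 1963, 1684 and 1790 in ATRA, with overlapping libraries and a log2 change of -0.02 (adjusted p = 0.952), and BBC3 (PUMA) overlapped as well at -0.28 (adjusted p = 0.556). BAD (0.43) and BNIP3L (0.50) were higher, and BID (-0.39) and BNIP3 (-0.45) lower, by adjusted p alone. HRK was at 0 in all 6 libraries.

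Among prosurvival and effector members, BCL2 itself, which restrains the effectors BAX and BAK1, fell from 3101, 3214 and 3384 to 492, 491 and 496 (log2 change -2.71, standard error 0.06, adjusted p = 1.2e-11). BCL2A1, a prosurvival gene of activated leukocytes, rose from 80, 69 and 73 to 523, 549 and 559. These were the called genes of 9 tested. MCL1, the prosurvival protein that neutrophils depend on, went from 4679, 4124 and 4194 to 7005, 6900 and 6688, a log2 change of 0.67 (adjusted p = 1.99e-06) under the fold of 2. BCL2L1 (0.51), BCL2L2 (0.41), BAK1 (0.32), BAX (0.22) and BCL2L12 (0.19) were higher by adjusted p alone, and BCL2L13 (0.05, adjusted p = 0.668) did not pass. BCL2L10 and BCL2L14 were at 0 in all 6 libraries, and BOK held 2 scaled counts in 1 of them. Death receptors, caspases and inhibitors had 4 of 33 called higher and none lower. RIPK3, a kinase of necroptosis, rose by 2.05 and CASP9, the apoptosome caspase, by 1.43 on the log2 scale.

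**Figure D4:**
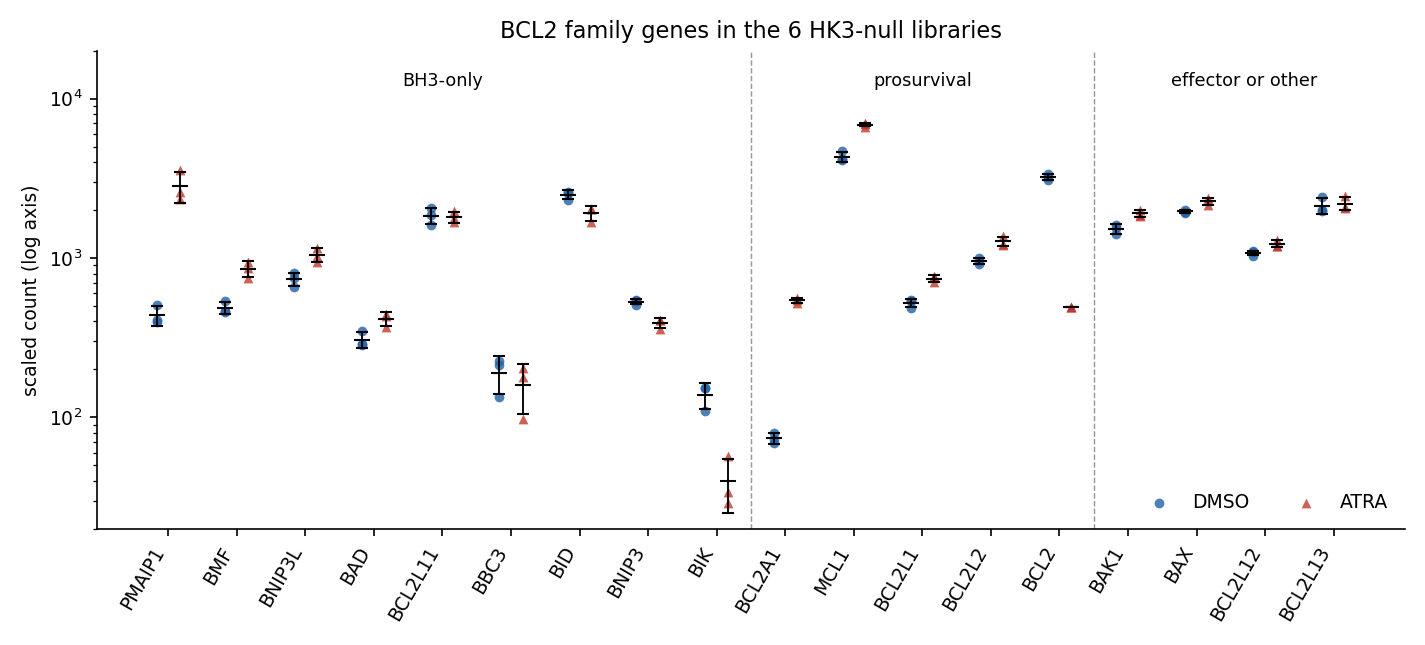
Scaled count (y axis, log scale) of the tested BCL2 family genes in each HK3-null library, with BH3-only, prosurvival and other genes parted by dashed lines. Circles are DMSO and triangles ATRA libraries, and bars give the mean and the standard deviation of 3 libraries. PMAIP1 and BCL2A1 stand well above their DMSO libraries and BCL2 and BIK well below, while BCL2L11 and BBC3 overlap.

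Markers of other cell types changed with the treatment too. Of 14 eosinophil and basophil markers 12 were tested, 4 were called lower and 1 higher, and none was at 0 throughout. The median log2 change of those tested was -0.14. Their summed scaled counts were 166699 to 174900 in DMSO and 46084 to 55159 in ATRA, of which PRG2 alone made up 97.4% to 97.6% and 92.1% to 93.4%. PRG2, the eosinophil major basic protein, fell from 162637, 165159 and 170475 to 51351, 51426 and 42445, and EPX, eosinophil peroxidase, held 652, 694 and 509 in DMSO and 391, 346 and 385 in ATRA. CLC, of the Charcot-Leyden crystal, went the other way without overlap, from 156, 213 and 177 to 343, 410 and 317, and its log2 change of 0.97 (adjusted p = 0.00398) stayed just under the fold of 2. CLC was chosen after its values were seen. CCR3, the eotaxin receptor, was the called rise, and GATA2 was among the falls, so these readings stand beside the values of both genes above. Of 17 monocyte and macrophage markers 9 were tested, 5 were called higher and none lower, and their sum was 1425 to 1481 scaled counts in DMSO and 6939 to 7658 in ATRA. CD68, which is on the lysosome list too, made up most of it, at 991, 1031 and 1006 in DMSO and 4385, 4565 and 4661 in ATRA. Of the 5 markers that reached 50 in both groups, 3 were called higher. VSIG4, a complement receptor of macrophages, went from 50, 50 and 54 to 1210, 1352 and 1624, MERTK, a receptor for dying cells, rose by 5.08, CD68 by 2.17 and CCR2 by 2.67. CD14 held 125, 124 and 116 in DMSO and 95, 77 and 90 in ATRA, and MRC1, C1QB and C1QC were at 0 in all 6 libraries. CSF1R held 109, 112 and 111 in DMSO and 143, 116 and 228 in ATRA. Mature neutrophil markers had 5 of 12 tested called higher and none lower (3 of the 8 that reached 50 in both groups). Among them FFAR2, a short-chain fatty acid receptor, was at 3, 3 and 4 in DMSO and 108, 114 and 82 in ATRA. The part of these other cell types in the results was not tested.

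Set beside the same treatment in Cas9 control cells, most of these changes kept their direction, and the libraries of the contrasts are separate. Of the 842 members called higher, 814 had a change above 0 in Cas9 control and 547 were also called higher there, with medians of 1.64 in HK3-null and 1.31 in Cas9 control on the log2 scale. Of the 623 called lower, 592 had a change below 0 and 212 were also called lower, with medians of -1.38 and -0.82. Over all tested genes 7.26% were called higher and 3.19% lower in Cas9 control. The members were chosen by their call in HK3-null cells, which by itself favours larger medians there. The difference itself, tested as the interaction of genotype and treatment, passed an adjusted p under 0.05 for 9.97% of all tested genes, 1321 in number, and for 557 of the called members. With the replicate numbers as a block the interaction count over all tested genes was 3182. The 1321 and the 557 come from the fit without that block, so a member not counted there was not shown to respond alike in both genotypes.

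Among the genes described, the fall of BCL2 and the rise of PMAIP1 were larger in HK3-null than in Cas9 control cells, while BMF differed in direction. BCL2 changed by -2.71 in HK3-null and by -1.61 in Cas9 control (interaction adjusted p = 1.39e-05), and PMAIP1 by 2.68 and 1.17 (adjusted p = 0.00859). The mean of BCL2 went from 3233 to 493 scaled counts in HK3-null and from 1923 to 630 in Cas9 control. That of PMAIP1 went from 438 to 2844 and from 525 to 1217. BMF had a log2 change of 0.80 in HK3-null and of -0.74 in Cas9 control (adjusted p = 0.000236). ITGAM rose less in HK3-null, by 2.31 against 5.41 (adjusted p = 5.34e-07), from a level in DMSO that was higher, with a mean of 350.0 scaled counts (SD 25.4, n = 3) against 25.7 (SD 2.31, n = 3). Its ATRA means were 1739 (SD 208) and 1134 (SD 135). The smaller log2 change of ITGAM thus came with a higher count in both treatments. CYBB, S100A9 and FGR had this order too, with means in DMSO of 224, 768 and 43.3 scaled counts in Cas9 control, under every HK3-null library, and with smaller log2 changes in HK3-null. TGM2 and PTGES had the opposite order, starting near 0 in both genotypes and reaching ATRA means of 1047 and 108 in Cas9 control. PHGDH changed by -2.79 in HK3-null and -0.58 in Cas9 control (adjusted p = 1.93e-06). Its mean went from 1436 to 207 scaled counts in HK3-null and from 8712 to 5814 in Cas9 control, so it was already lower in HK3-null in DMSO.

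**Figure D5:**
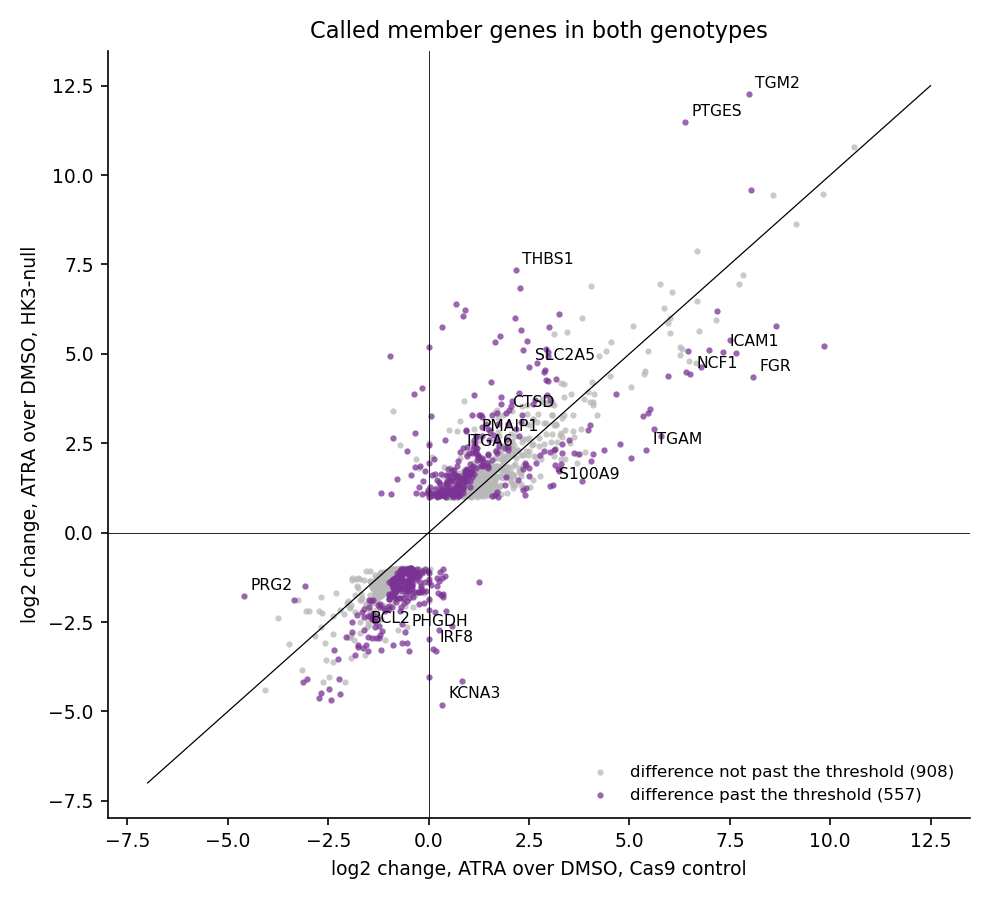
Log2 change from DMSO to ATRA in HK3-null (y axis) against that in Cas9 control (x axis) for the 1465 called members, with the line of equal change. Purple points are the 557 members whose difference between genotypes passed an adjusted p under 0.05 in the fit without a replicate block, grey points the other 908. PTGES, TGM2 and THBS1 lie above the line and ITGAM, FGR and S100A9 below it among the rises.

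Chromatin accessibility was measured by ATACseq in 2 HK3-null libraries per treatment and is given as a description with no test. The 8286 deposited regions were selected by the authors for a difference between HK3-null and Cas9 control cells in ATRA, so they are no sample of all open chromatin. Regions that list only 1 gene, a member called higher, numbered 296 over 181 genes, and their median log2 change of signal was 0.21 with 60.5% above 0. Regions that list only a member called lower numbered 169 over 92 genes, with a median of -0.41 and 26.6% above 0. For all regions the median was -0.11 and 43.4% were above 0. Accessibility thus moved with the RNA of the listed gene in these medians.

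TGM2 has 3 regions, all with higher signal in ATRA. The region at chr20:38132517-38132967, inside the gene and over an exon, held a signal of 0.0 and 1.62 in DMSO and 45.9 and 40.2 in ATRA. The region at chr20:38142851-38143356, in an intron, held 3.73 and 1.64 in DMSO and 33.4 and 21.5 in ATRA. The region at chr20:38165185-38165617, in an intron and centred 1177 bases past the start in GENCODE, held 37.0 and 31.6 in DMSO and 103 and 93.2 in ATRA. RefSeq places the outer end of the gene further out, at 38168475. Signal at TGM2 was thus higher in ATRA both near its GENCODE start and deep in the gene. At PTGES the region chr9:129752874-129753316, whose centre is 53 bases before the start, held 11.9 and 7.36 in DMSO and 124 and 79.9 in ATRA. An intronic region of SLC2A5 at chr1:9077930-9078428 held 10.3 and 15.5 in DMSO and 138 and 190.0 in ATRA. Among genes that fell, SPNS3 had a region at chr17:4444445-4445099 with 25.3 and 27.2 in DMSO and 2.25 and 2.6 in ATRA. BCL2 had 1 region, at chr18:63155387-63155841, with 9.0 and 11.9 in DMSO and 10.5 and 7.8 in ATRA, which overlap, and 3 regions of BMF had lower means in ATRA although its RNA was higher.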

How the data were processed

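RNAseq was done on 2 HL60 genotypes and 2 treatments (3 libraries each, 200000 cells per sample, directional paired-end reads, mapped by the authors to GRCh38). Which aligner and counter were run is not given in the sources used here. The deposited RNA values are log2 of whole-number scaled counts (0 written as log2 of 0.001), although the methods describe RPKM; DESeq2 is named in the submitters' processing notes. The deposited ATACseq values are a signal per region from MACS2 peaks; those of Cas9 control cells were not used here. Scaled counts were recovered as 2 to the deposited value, and the 330 entries without a gene name (at most 0.00926% of scaled counts in a library) were left out. limma 3.58.1 in R 4.3.3 (lmFit, eBayes with a trend) was fitted to log2(scaled count + 1) of all 12 libraries with 1 mean per group, over 13256 genes with a group mean of the deposited log2 above 3; p-values were adjusted by Benjamini-Hochberg over all tested genes, and the fit was tested on simulated data. Genes were named by rule: ITGAM, PMAIP1, BMF, BCL2 and HK3, the 12 largest rises and falls among called members without overlap, up to 4 called members of each list, and all BCL2 family genes; some genes and 1 list are not reported here. The members and the 39 lists (1058 of 1076 genes found, mitochondrially encoded genes absent) were chosen with earlier results of these data known. Replicate numbers pair the libraries: over 10667 genes, deviations of same-numbered libraries from their group means correlated at 0.178 to 0.631 in all 18 pairs. Sequences, promoters and gene coordinates are from RefSeq on GRCh38.p14. Exons, and the gene starts used to place ATACseq regions, are from GENCODE v44.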

Additional observations from a re-analysis of the deposited data

Results flagged for a closer look

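For 61 of the 125 genes described, the response to ATRA differed between HK3-null and Cas9 control cells by the interaction term in limma at an adjusted p under 0.05, and the values below are the log2 change in HK3-null minus that in Cas9 control. Over all tested genes 9.97% passed, and the genes described were chosen mostly for large changes in HK3-null cells, so the shares are not comparable. All 61 passed with the replicate block too. Without Cas9 control DMSO replicate 1, the library that stands apart, 56 passed, and CCL24, BIK, ASNS, MX2 and CLEC4E did not, at adjusted p of 0.0558 to 0.076 by limma. Leaving out each of the 12 libraries in turn, 52 passed throughout, and those 5 with THBS1, DTNA, CHST4 and FFAR2 missed the threshold without at least 1 library, at adjusted p of 0.0508 to 0.117.

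Genes that rose in HK3-null cells and had the higher change there were PTGES (5.09), THBS1 (5.16), TGM2 (4.28), CYP26A1 (3.73), SLC2A5 (2.16), VSIG4 (2.03), SLC7A11 (1.81), OAS3 (1.69), FFAR2 (1.66), CCL24 (1.56), PMAIP1 (1.51), ITGA6 (1.47), CTSD (1.41), PSMB9 (1.31), GABARAPL1 (1.16), MX2 (1.05), NKG7 (1.00), CEBPB (0.91), PGD (0.77), CSF3R (0.77), CCND3 (0.59), GSTO1 (0.43) and CDKN2C (0.37). Without Cas9 control DMSO replicate 1 the difference was 3.50 for THBS1, whose Cas9 control DMSO libraries held 205, 5 and 6 scaled counts, and 3.56 for TGM2. THBS1 was at 6.05 without Cas9 control DMSO replicate 2 and at 5.94 without replicate 3, and PTGES at 4.45 without HK3-null DMSO replicate 1 and at 5.86 without HK3-null DMSO replicate 3. BMF, which did not reach the fold of 2 in HK3-null, had a difference of 1.54.

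Genes that rose in HK3-null cells by less on the log2 scale than in Cas9 control were FGR (-3.74), ITGAM (-3.10), ITGB7 (-2.69), ICAM1 (-2.29), CYBB (-2.29), NCF1 (-2.06), HK3 (-1.89), FBP1 (-1.85), S100A9 (-1.78), LILRB2 (-1.57), S100A8 (-1.37), BPI (-1.25), BCL2A1 (-1.11) and CD68 (-0.60). Each had a higher mean scaled count in HK3-null than in Cas9 control cells in both treatments. BPI, for instance, had means of 6242 in DMSO and 23158 in ATRA in HK3-null, against 98.3 and 866 in Cas9 control. For HK3 the ATRA means were close, at 1548 and 1484. The smaller log2 changes thus came with a higher start.

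Among genes that fell in HK3-null cells, the change was lower there for KCNA3 (-5.15), DTNA (-4.99), IRF8 (-3.35), DEPTOR (-2.30), SEMA3G (-2.26), PHGDH (-2.20), SLC7A2 (-2.15), CLEC4E (-2.08), XAF1 (-2.62), IFITM2 (-1.52), CHST4 (-1.90), DDN (-1.89), SPNS3 (-1.86), TERT (-1.81), BIK (-1.42), BCL2 (-1.10), IGLL1 (-1.03), MYC (-0.85), ASNS (-0.76), NPM3 (-0.72), PPAT (-0.57) and POLD2 (-0.52). PRG2 was the exception, with a difference of 2.81, as it fell further in Cas9 control, from a mean of 7723 scaled counts to 324. KCNA3, SLC7A2 and CLEC4E had at most 3 scaled counts in each Cas9 control library, and DTNA held 14, 0 and 0 in DMSO there, so no fall of such size could be seen in Cas9 control and the difference rests on the level in HK3-null DMSO. XAF1 was also low in Cas9 control, at 4, 4 and 2 in DMSO and 12, 10 and 6 in ATRA. CHST4 started there at 19, 13 and 14 in DMSO and ended at 2, 3 and 1 in ATRA, which limits the fall that could be seen. CYP26A1, among the rises, had at most 4 in each Cas9 control library. DTNA was at -6.29 without Cas9 control DMSO replicate 1, at -4.34 without replicate 2 or replicate 3 of that group, and at -3.86 without Cas9 control ATRA replicate 3.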

How the results depend on the processing

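The number of genes called in HK3-null ATRA against DMSO was 2034. It was 1350 (752 higher) among genes with a mean of 50 or more over all 12 libraries, since fewer genes were tested. It was 3768 (1962 higher, 1806 lower; 1546 and 1501 among members) at a fold of 1.5, and 3963 (2086 higher, 1877 lower; 1585 and 1518 among members) at an unadjusted p under 0.05 with that fold. Leaving out 1 HK3-null library gave 1865 to 2080 calls, and leaving out 1 of the 12 libraries gave 955 to 1277 genes with a difference between genotypes against 1321. With the replicate block that count was 3182, the cause was not tested, and the block changed the call of none of the 125 genes described; 1169 of the genes called higher and 862 of those called lower were also called with it. Quantile normalization gave 1029 higher and 1050 lower, a share of 49.5% higher against 57.6%, and moved the median of all tested genes from 0.01 to -0.04. Of 1869 values of genes described under the alternatives, 1851 kept their direction and side of the threshold, and 4 of BCL2L11, BBC3 and BCL2L13, which were not called, changed sign. CLC was called without HK3-null DMSO replicate 2 (1.09) or HK3-null ATRA replicate 3 (1.05). The 12 that lost the call were KCNA3, C1orf186, DTNA, CEACAM1, SLC7A2, CLEC4E and CLEC4D with the deposited log2 values, where the adjusted p rose and the folds did not shrink, HSPE1 without HK3-null ATRA replicate 3, and POLD2 in 4 settings at the fold limit. Each gene lost with the deposited log2 values holds a 0 in a Cas9 control library, entered there as log2 of 0.001. All 12 libraries share 1 estimate of the spread in that fit, and the part of these zeros in the adjusted p was not tested. Of the 19 lists with a median at least 0.4 from 0, none changed sign. With 3 libraries a group and unknown depth, low genes near 3 scaled counts cannot be resolved.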

Other observations

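Several lists not described above moved at a few genes. Fc, complement and pattern receptors had 14 of 33 tested genes called higher and 2 lower in HK3-null cells (median log2 change 0.46). Among the 24 that reached the member level in both HK3-null groups, 9 were called higher and 1 lower. LILRB2, an inhibitory receptor for HLA class I, held 49, 43 and 41 scaled counts in DMSO and 850, 883 and 1139 in ATRA, and FCGRT, the neonatal Fc receptor, rose by 2.76 on the log2 scale. The falls were the C-type lectin receptors CLEC4E, from 309, 314 and 293 to 37, 26 and 30, and CLEC4D, from 557, 591 and 542 to 181, 146 and 132. Both are neighbours on chromosome 12, and each ATRA library lay below each DMSO library, but with the deposited log2 values the falls, at -3.31 and -1.89, did not pass the adjusted p.

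Of 23 tested p53-type stress targets, 3 were called higher and 1 lower, with a median log2 change of 0.17. The antiproliferative genes BTG1 and BTG2 rose by 2.28 and 1.67 on the log2 scale, while AEN, a nuclease of apoptosis, changed by -1.51. Antioxidant and glutathione genes had 2 of 33 called higher and 1 lower: SLC7A11, the cystine importer, went from 621, 620 and 442 scaled counts to 2267, 1818 and 1525, GSTO1 rose by 1.13, and the peroxidase PRDX1 changed by -1.16. Immediate early and heat shock genes had 1 of 17 called higher, FOS (1.28), and 2 called lower, the mitochondrial chaperones HSPD1 (-1.04) and HSPE1 (-1.03), the latter at -0.95 and not called without HK3-null ATRA replicate 3. Of T and NK lymphoid markers 2 of 6 tested were called higher and 2 lower, among them NKG7, a granule membrane protein (1.44), and TRAC (-2.02). Erythroid and megakaryocyte markers had 1 of 4 called higher and 1 lower, and B lymphoid markers 1 of 3 called higher. Mitochondrially encoded genes were not among the entries used here.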
